A study of Mus musculus with 3 samples.

Results

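The SOX genes encode transcription factors that bind DNA through an HMG box, and 7 of them were followed here in developing somatostatin neurons (SST+ neurons) of the mouse neocortex (NCx): Sox1, Sox2, Sox4, Sox5, Sox6, Sox11, and Sox12. These 7 are among 31053 genes listed in the count tables, which hold 19 SOX factor genes (antisense transcripts named after them are not counted). The study sorted GFP+, DAPI-negative cells (DAPI enters dead cells) from the NCx of SstCre/+;RCEfl/+ mice and counted their mRNA with 10x Genomics Chromium. GFP in these mice comes from a reporter that Cre switches on for good, so it marks each cell in which the Sst gene drove Cre at any earlier time, and all libraries share this genotype (labelled Sst-Cre; RCEloxP) with no treatment. There was 1 library per stage, made from 6 pooled animals at E16.5 (embryonic day 16.5), 3 at P1 (postnatal day 1), and 3 at P5. Dissociation also differed: trypsin and DNase were added at P5, and myelin was removed over Percoll for P1 and P5, a step not given for E16.5. Because each stage is a single pool with its own preparation, stage and preparation cannot be told apart, and no value below has a replicate. No test between stages was possible, and the cell groups of the 3 libraries were not tested as replicates because these differ in stage. Every interval is a 95% interval of counting error only.

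The study asks how SST+ neurons that project over long distances and SST+ interneurons come to differ, and a pair of cell groups was therefore compared within each library. The first are cells with at least 1 UMI (unique molecular identifier, which stands for 1 captured mRNA) of Nos1, the neuronal nitric oxide synthase that marks SST+ long-range projection (LRP) neurons. The second are cells with a UMI of Lhx6, the homeobox gene of neurons born in the medial ganglionic eminence, and none of Nos1. They are called Nos1 cells and Lhx6 cells here. In stage order, the libraries held 67, 434, and 547 Nos1 cells beside 3269, 1606, and 1874 Lhx6 cells. In such groups, fewer expressing cells and less mRNA per cell cannot be told apart from summed counts alone, so shares of cells are also given.

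SOX proteins fall into groups by their HMG box. The SOXB1 proteins SOX1 and SOX2 maintain neural progenitors and often bind DNA together with POU factors. The SOXC proteins SOX4, SOX11, and SOX12 act in newly born neurons, where they activate genes of neuronal differentiation. The SOXD proteins SOX5 and SOX6 lack an activation domain of their own and dimerize with each other. Sox6 acts in interneurons from the medial ganglionic eminence, and Sox5 is best known in the cortex from deep-layer excitatory projection neurons.

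As deposited, the 3 libraries hold 4478, 4440, and 3406 cells in stage order, with total counts of 25638779, 15654107, and 13429055 UMIs. Cells with more than 700 genes and under 10% mitochondrial UMIs were kept, which left 88.3%, 56.3%, and 87.5% of them. The P1 library therefore stood apart, and its kept cells also had the lowest median depth (3293 UMIs, beside 5577 at E16.5 and 3935.5 at P5) and the highest median mitochondrial share (5.92%, beside 4.05% and 4.21%). All ratios were therefore recomputed under a stringent filter on cells (over 1000 genes and under 5% mitochondrial UMIs), and P1 calls that it ended are given with the results. The median depth of Nos1 cells was 7863, 3704.5, and 3073 UMIs, and that of Lhx6 cells 5808, 3811, and 4752.5 UMIs. Kept cells shared 2 barcodes between E16.5 and P1, 1 between E16.5 and P5, and 1 between P1 and P5.

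The labelled cell type was present in both groups. The level of Sst, in summed UMIs scaled to a total of 1000000 (CPM), was 5270, 5332, and 4205 in Nos1 cells and 2901, 1518, and 1425 in Lhx6 cells. Chodl, a marker of LRP neurons, was at 42.1, 284, and 399 CPM in Nos1 cells beside 7.21, 12.1, and 7.13 CPM in Lhx6 cells. A Lhx6 UMI was found in 49, 360, and 392 of the Nos1 cells. Markers of other cells were low: the 11 glial markers summed to 23.6, 5.59, and 7.13 CPM in Nos1 cells and to 4.62, 8.37, and 11.0 CPM in Lhx6 cells, with Sox10, Gfap, and Olig2 among those at 0 in Nos1 cells of every library. The 5 cycling markers summed to between 5.05 and 14.7 CPM in all of these groups, and the 4 microglial and 4 vascular markers to at most 3.55 CPM. The exceptions were 6 excitatory markers (Neurod1, Neurod2, Neurod6, Slc17a6, Slc17a7, and Tbr1). They summed to 591, 158, and 6.11 CPM in Nos1 cells and to 8.29, 9.49, and 2.81 CPM in Lhx6 cells, and all 6 were at least 2-fold higher in Nos1 cells at E16.5. Values for Nos1 cells are therefore also given without the cells that held 2 or more of these genes.

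All 7 genes are protein coding. In the annotation of GRCm38, Sox1 (ENSMUSG00000096014) lies at chr8:12395295-12400126 on the plus strand, and Sox2 (ENSMUSG00000074637) at chr3:34650405-34652461 on the plus strand. Sox4 (ENSMUSG00000076431) lies at chr13:28948919-28953713, Sox11 (ENSMUSG00000063632) at chr12:27334264-27342574, and Sox12 (ENSMUSG00000051817) at chr2:152393611-152398063, all on the minus strand. Sox5 (ENSMUSG00000041540), at chr6:143828425-144781977, and Sox6 (ENSMUSG00000051910), at chr7:115470872-116038796, are also on the minus strand, and their spans of 953553 and 567925 bases are far longer than the 2057 bases of Sox2. Sox2 and Sox1 are overlapped on their own strand by the transcripts Sox2ot and Sox1ot, which the count tables do not list. Reads of those transcripts from the overlaps can therefore not be told apart from reads of the genes. The lincRNA Gm26735 overlaps Sox4 on the opposite strand.

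POU3F2, a SOXB1 partner, belongs to the POU factors, which bind the octamer ATGCAAAT (reverse complement ATTTGCAT). This motif was searched on both strands of the promoter windows of RefSeq (GRCm38.p6), which run from 250 bases before to 50 bases after a start. The 7 genes have 12 such windows, of which Sox6 has 6. The octamer was in 2 of the 12, those of Sox1 and Sox12, and in 1.74% of all 32851 windows. A match of at least 7 of its 8 letters was in 5 of the 12 windows, 1 of them that of Sox2, and in 18.6% of all windows. These 3 stretches of 30 bases are shown because Sox1 and Sox2 are the members that differed most between Nos1 and Lhx6 cells at P5, while Sox12 holds the same letters and had the lowest ratio of the 7 there. They read 5′ to 3′ on the strand of the gene, with the best match to the octamer in capitals:
Sox1, chr8:12395526-12395555: gccagcgcgccATGCAAATcaccgccgccg
Sox2, chr3:34649885-34649914: cgccccctttcATGCAAAAccctctggcga
Sox12, chr2:152398223-152398252: gcgattgggagATGCAAATgctgagttctc
The match begins 195 bases before the start in Sox12, 99 bases before it in Sox2, and 18 bases after it in Sox1. These distances are from the RefSeq starts of the windows, which differ from the starts of the gene spans given above. These matches describe the letters in the windows, and binding was not measured.

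Sox1, which marks neural progenitors and some interneurons, was higher in Nos1 cells than in Lhx6 cells in all 3 libraries. Its level was 217 (181 to 258), 219 (199 to 240), and 106 (92.5 to 122) CPM in Nos1 cells, in stage order, and 109 (105 to 113), 93.3 (86.7 to 100.2), and 30.0 (26.6 to 33.8) CPM in Lhx6 cells. The intervals of the 2 groups did not overlap at any stage. The ratio of Nos1 over Lhx6 cells was 1.99 (1.66 to 2.38), 2.35 (2.08 to 2.65), and 3.55 (2.95 to 4.26). In both groups the lowest value was at P5, where Sox1 had 0.322 times its P1 level in Lhx6 cells and 0.486 times in Nos1 cells.

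Sox2, the progenitor gene that some mature neurons keep, was highest at P1 in Nos1 cells and at E16.5 in Lhx6 cells. It was at 266 (226 to 311), 461 (432 to 492), and 377 (351 to 406) CPM in Nos1 cells, and at 268 (261 to 275), 204 (194 to 214), and 121 (114 to 128) CPM in Lhx6 cells. The ratio of Nos1 over Lhx6 cells was 0.993 (0.843 to 1.16), 2.26 (2.08 to 2.46), and 3.12 (2.84 to 3.42). With all cells the groups were thus level at E16.5, whereas without cells holding 2 or more excitatory genes the E16.5 ratio was 1.40 (1.18 to 1.64). Under the stringent filter the P1 level in Lhx6 cells was 1.17 times that at E16.5, in place of 0.761 times. At P5 the level in Lhx6 cells was 0.452 times its E16.5 value (0.424 to 0.482), whereas that in Nos1 cells was at 1.42 times its value (1.19 to 1.70). The Nos1 value rests on how the E16.5 Nos1 cells are chosen: without cells holding 2 or more excitatory genes it was 1.00, and with a Lhx6 UMI required of Nos1 cells it was 0.940.

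**Figure D1:**
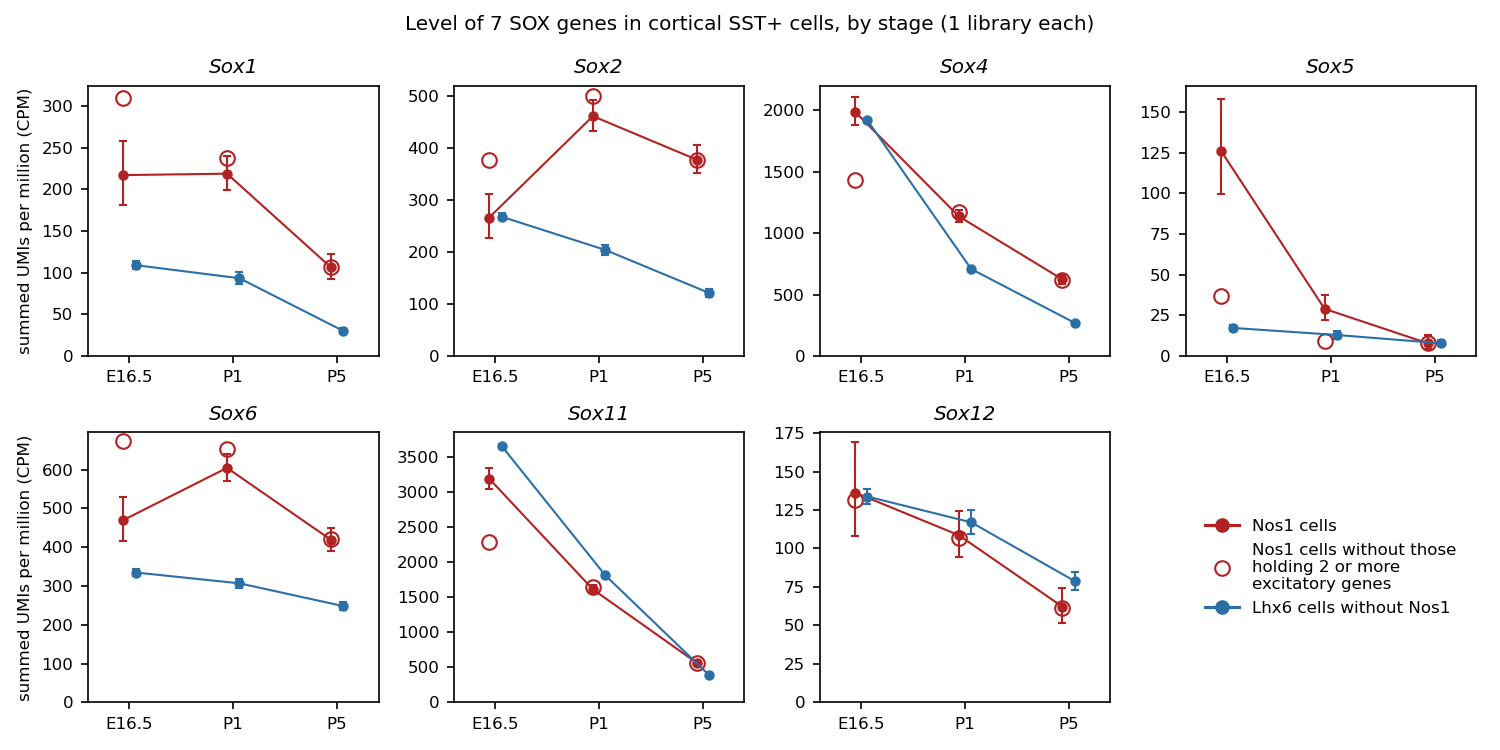
Level of each SOX gene (CPM, linear axis from 0) by stage in Nos1 cells (red) and Lhx6 cells without Nos1 (blue), 1 library per stage, with bars for the 95% counting interval. Open circles give Nos1 cells without those holding 2 or more excitatory genes, and at E16.5 they lie above the filled circle for Sox1, Sox2, and Sox6 and below it for Sox4, Sox5, and Sox11.

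The SOXC genes Sox4 and Sox11 were the members with the steepest decline in Lhx6 cells. Sox4, which acts in young neurons, was at 1918 (1900 to 1937), 708 (690 to 727), and 268 (258 to 279) CPM in Lhx6 cells, and at 1989 (1878 to 2106), 1137 (1091 to 1185), and 623 (589 to 659) CPM in Nos1 cells. The ratio of Nos1 over Lhx6 cells was 1.04 (0.978 to 1.10), 1.61 (1.53 to 1.69), and 2.32 (2.17 to 2.49), so that Nos1 cells were higher at P1 and P5. The E16.5 ratio of Sox4 was 0.747 (0.688 to 0.811) without cells holding 2 or more excitatory genes and 0.468, over 2-fold lower, with at least 5 Nos1 UMIs. Beside E16.5, the P5 level of Sox4 was 7.15-fold lower in Lhx6 cells and 3.19-fold lower in Nos1 cells, although in Nos1 cells with at least 5 Nos1 UMIs its log2 ratio was −0.48, under the 2-fold limit. The values with at least 5 Nos1 UMIs rest on few E16.5 cells and are given without intervals. Of the 67 E16.5 Nos1 cells, 38 held a single Nos1 UMI.

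Sox11, the closest relative of Sox4, was at 3664 (3639 to 3690), 1815 (1786 to 1845), and 390 (377 to 403) CPM in Lhx6 cells and at 3198 (3056 to 3345), 1615 (1559 to 1672), and 566 (534 to 601) CPM in Nos1 cells. Nos1 cells were below Lhx6 cells at E16.5 and P1 and above them at P5. The ratios were 0.873 (0.833 to 0.913), 0.890 (0.856 to 0.925), and 1.45 (1.36 to 1.55), none of them 2-fold. Beside E16.5, the P5 level was 9.40-fold lower in Lhx6 cells and 5.65-fold lower in Nos1 cells. In Nos1 cells with at least 5 Nos1 UMIs the Sox11 level was 3.68-fold lower at P5 than at E16.5, and the E16.5 ratio of Nos1 over Lhx6 cells was 0.562. As for Sox4, the values with at least 5 Nos1 UMIs rest on few E16.5 cells and are given without intervals.

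Sox12, the weakest activator of the SOXC group, was at 134 (129 to 139), 117 (110 to 125), and 78.7 (73.1 to 84.7) CPM in Lhx6 cells and at 136 (108 to 169), 109 (94.6 to 124), and 62.1 (51.6 to 74.2) CPM in Nos1 cells. Its course was flatter than that of Sox4 and Sox11, with 0.589 times the E16.5 level at P5 in Lhx6 cells and 0.456 times in Nos1 cells. The ratio of Nos1 over Lhx6 cells was 1.02 (0.807 to 1.27), 0.929 (0.797 to 1.08), and 0.789 (0.646 to 0.957).

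Of the SOXD genes, Sox6 had the flattest course of the 7 members in Lhx6 cells. It was at 335 (327 to 343), 307 (295 to 319), and 248 (238 to 259) CPM in Lhx6 cells and at 470 (416 to 528), 604 (570 to 640), and 419 (391 to 449) CPM in Nos1 cells. Nos1 cells were higher at every stage, with ratios of 1.40 (1.24 to 1.58), 1.97 (1.84 to 2.11), and 1.69 (1.56 to 1.83). At P5 Lhx6 cells had 0.742 times and Nos1 cells 0.893 times (0.778 to 1.03) their E16.5 level.

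Sox5 was low in Lhx6 cells, at 17.2 (15.5 to 19.1), 12.9 (10.5 to 15.6), and 7.78 (6.09 to 9.79) CPM. In Nos1 cells it was at 126 (99.3 to 158), 28.9 (21.9 to 37.5), and 7.64 (4.28 to 12.6) CPM, from 75, 57, and 15 UMIs. The groups were far apart at E16.5, closer at P1, and level at P5, with ratios of 7.34 (5.65 to 9.44), 2.25 (1.60 to 3.14), and 0.983 (0.523 to 1.73). The Nos1 values at E16.5 and P1 rest on a few cells with excitatory genes, as given further on.

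A gene was counted as higher or lower when the ratio of CPM was at least 2-fold, among genes with at least 10 summed UMIs. All 7 genes passed this filter in every comparison. Log2 ratios, and calls under alternative settings, were taken from CPM + 1 unless the setting changed the pseudocount. Between Nos1 and Lhx6 cells, 1 of the 7 SOX genes was higher at E16.5 (Sox5), where 9.56% of all 13574 genes tested were higher. At P1 3 were higher (Sox1, Sox2, and Sox5), beside 5.79% of all genes, and at P5 3 were higher (Sox1, Sox2, and Sox4), beside 6.07%. None of the 7 was at least 2-fold lower at these stages, beside 15.4%, 6.26%, and 10.3% of all genes. Taken from CPM + 1, the SOX counts were the same, beside 6.45%, 4.33%, and 4.22% of all genes higher and 8.69%, 3.72%, and 7.08% lower. Sox1 at E16.5 and Sox6 at P1, with ratios of 1.99 and 1.97, lay just under the limit. The median log2 ratio of the 7 genes was 0.05, 0.98, and 0.75, beside −0.05, −0.03, and −0.07 over all genes. The study names Sox1, Sox2, and Sox6 among the genes of LRP neurons from these same cells, so their direction here is not independent evidence.

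The calls for Sox1, Sox2, and Sox4 at P5 and for Sox5 at E16.5 held under all 18 alternative settings run for each. Among the 18, the planned removal of excitatory cells could not take an excitatory cell out of either group. For Sox5 at E16.5, the ratio without cells holding 2 or more excitatory genes was 2.32 (1.28 to 3.88), from 15 UMIs. That interval reaches under 2-fold. At P1 the call for Sox5 ended under 11 of 18 settings, and those for Sox1 and Sox2 ended under 2 of 18. With over 1000 genes and under 5% mitochondrial UMIs per cell, which leaves 22.2% of the P1 Lhx6 cells, their log2 ratios were 0.79 and 0.75, and with the mean of CPM per cell in place of summed UMIs they were 0.96 and 0.95.

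**Figure D2:**
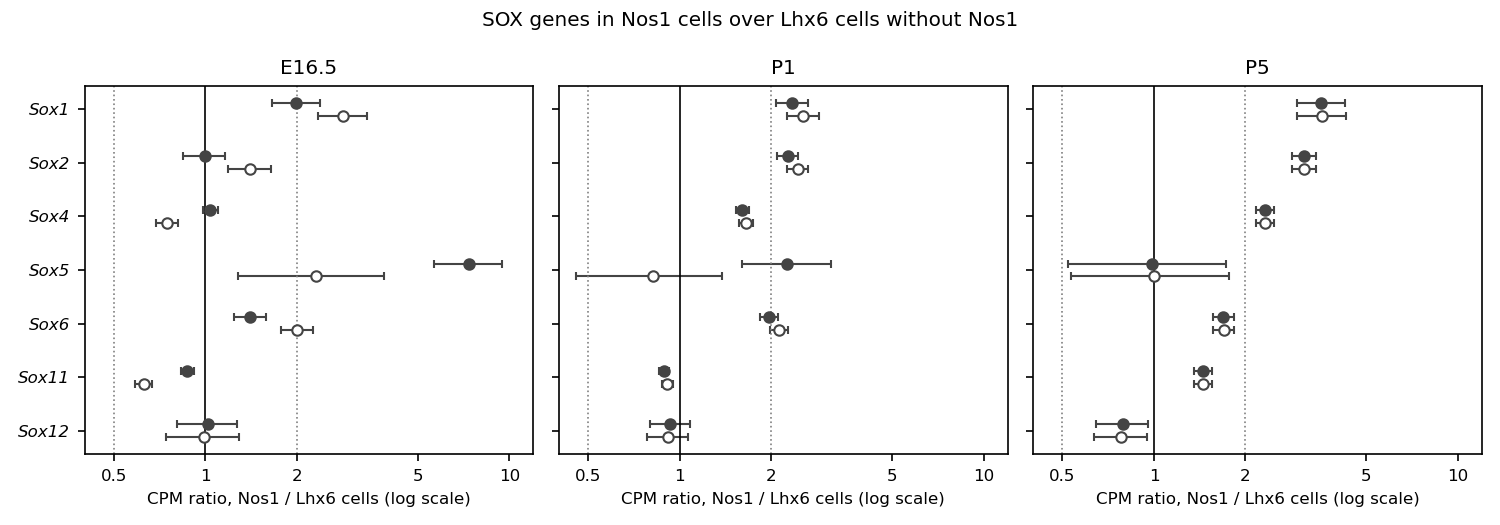
Ratio of CPM in Nos1 cells over Lhx6 cells without Nos1 for each SOX gene (log axis) at E16.5, P1, and P5, with 95% counting intervals. Filled points use all cells, open points leave out cells with 2 or more excitatory genes, and dotted lines mark 2-fold; at P5 both kinds of point coincide and Sox1, Sox2, and Sox4 lie beyond the line.

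Between stages, the members past the 2-fold limit were all lower at the later stage. In Lhx6 cells, 2 of the 7 (Sox4 and Sox11) were lower at P1 than at E16.5, beside 6.45% of all genes, 3 (Sox1, Sox4, and Sox11) were lower at P5 than at P1, beside 13.6%, and 5 (all but Sox6 and Sox12) were lower at P5 than at E16.5, beside 16.3%. No member was at least 2-fold higher in these 3 comparisons, in which 16%, 13.2%, and 23.6% of all genes were. The median log2 ratio of all genes was 0.16, −0.07, and 0.07, none of them far on the lower side.

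In Nos1 cells, 1 member (Sox5) was lower at P1 than at E16.5, beside 6.71% of all genes. At P5, 3 (Sox1, Sox5, and Sox11) were lower than at P1, beside 14.4%, and 5 (all but Sox2 and Sox6) were lower than at E16.5, beside 15.8%. No member was higher, beside 17.3%, 8.93%, and 19.3% of all genes. The members that were not at least 2-fold lower in Nos1 cells between E16.5 and P5 were thus Sox2 and Sox6. Sox6 was still below its E16.5 level at P5 under all 18 alternative settings, with log2 ratios from −0.70 to −0.15. Sox2 was below its E16.5 level under 1 of 18, at −0.09. The stringent filter on cells ended the P1 over E16.5 calls in Lhx6 cells, with log2 ratios of −0.88 for Sox4 and −0.71 for Sox11 (−0.90 for Sox11 with the mean of CPM per cell). The P5 over E16.5 call in Lhx6 cells ended under 8 of 18 settings for Sox5 and under 1 of 18, the mean of CPM per cell, for Sox2. In Nos1 cells the P5 over P1 call for Sox5 ended under 6 of 18, with 0.831 times the level without cells holding 2 or more excitatory genes, and the P5 over E16.5 call for Sox12 under 3 of 18. Single settings ended the calls for Sox1 in Nos1 cells (−0.93 for P5 over P1 with all deposited barcodes, −0.99 for P5 over E16.5 with a pseudocount of 5).

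UMIs of 2 or more of the 6 excitatory markers were found in 14 of the 67 E16.5 Nos1 cells, and in 17 of 434 and 3 of 547 of those from P1 and P5, respectively. These cells differed from other Nos1 cells in their SOX genes. At E16.5 the 14 cells held 60 of the 75 Sox5 UMIs of Nos1 cells (80.0%), 595 of 1182 of Sox4, and 961 of 1900 of Sox11, but 2 of 129 of Sox1, 4 of 158 of Sox2, and 3 of 279 of Sox6. They also held 22 of 3131 Sst UMIs and 1 of 112 Gad1 UMIs (Gad1 makes GABA). At P1 the 17 cells held 40 of 57 Sox5 UMIs, 8 of 908 Sox2 UMIs, and 14 of 1190 Sox6 UMIs.

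In CPM, the 14 cells at E16.5 had 325 of Sox5, 10.8 of Sox1, 21.7 of Sox2, and 16.3 of Sox6. The other 53 Nos1 cells had 36.6 of Sox5, 310 of Sox1, 376 of Sox2, and 674 of Sox6. Similar levels were seen among all kept cells with 2 or more excitatory genes (45, 43, and 24 cells), where Sox5 was at 441, 254, and 290.2 CPM and Sox6 at 38.5, 50.8, and 9.67 CPM. Cells with excitatory genes were thus high in Sox5 and low in Sox1, Sox2, and Sox6.

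**Figure D3:**
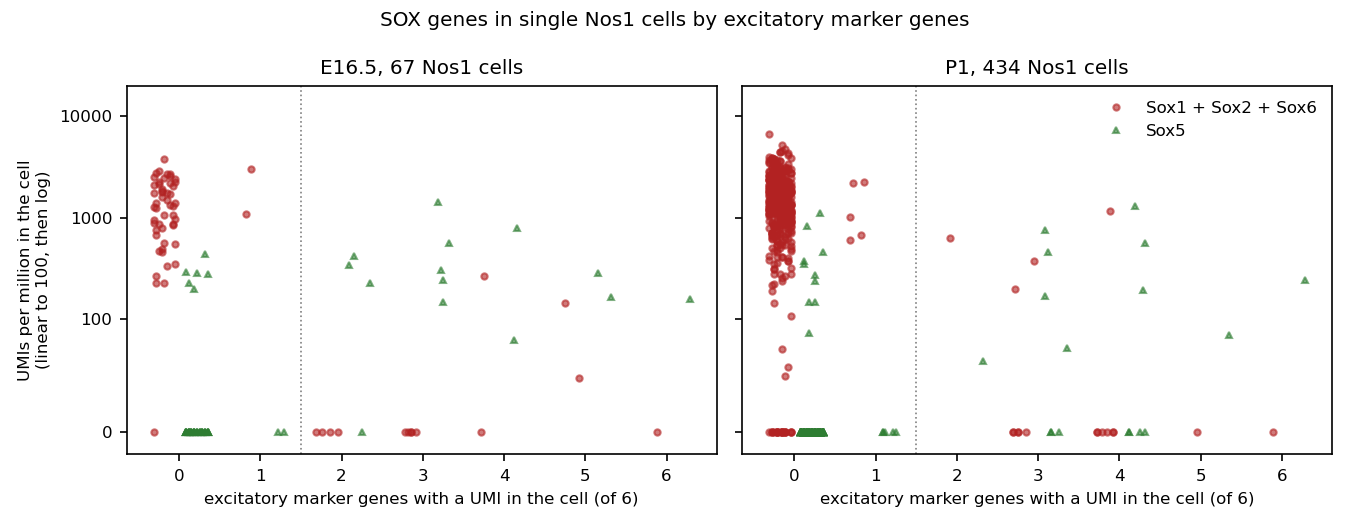
Single Nos1 cells at E16.5 and P1 by the number of 6 excitatory marker genes with a UMI (x axis, points spread sideways) and by the level in the cell (y axis, CPM within the cell, linear to 100 and log above) for Sox5 (green) and for the sum of Sox1, Sox2, and Sox6 (red). Right of the dotted line, where a cell holds 2 or more excitatory genes, Sox5 is often present and the red points lie mostly at 0.

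Without these cells, at E16.5 the ratio of Nos1 over Lhx6 cells was 2.83 (2.35 to 3.39) for Sox1, 1.40 (1.18 to 1.64) for Sox2, and 2.01 (1.77 to 2.26) for Sox6, each higher than with all cells. For Sox5 it was 2.32 (1.28 to 3.88), from 15 UMIs, and for Sox4 and Sox11 it was 0.747 (0.688 to 0.811) and 0.626 (0.586 to 0.667). The genes called higher were then Sox1, Sox5, and Sox6, 3 of the 7 beside 9.7% of all genes, and none was lower, beside 18.8%. At P1 the ratio for Sox5 was 0.818 (0.457 to 1.38), below 1, and those for Sox1, Sox2, and Sox6 were 2.55, 2.44, and 2.12. At P5 the ratios of Sox1, Sox2, Sox4, and Sox6 were 3.56, 3.12, 2.32, and 1.69. Between E16.5 and P5, Nos1 cells without these cells had 1.00 times the Sox2 level and 0.626 times the Sox6 level. The part of excitatory cells or of their RNA in the Nos1 group was not tested beyond these values.

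For shares of cells with a UMI, each cell was thinned to 2000 UMIs, which left 65, 356, and 414 Nos1 cells and 3100, 1315, and 1673 Lhx6 cells. Sox1 was found in 27.7% (17.3 to 40.2), 37.1% (32.1 to 42.3), and 18.1% (14.5 to 22.2) of Nos1 cells and in 17.7%, 18.9%, and 5.38% of Lhx6 cells. Sox2 was found in 32.3% (21.2 to 45.1), 60.1% (54.8 to 65.2), and 49.8% (44.8 to 54.7) of Nos1 cells and in 38.0%, 36.2%, and 21.3% of Lhx6 cells. At P1 and P5 more Nos1 than Lhx6 cells held these genes, beyond the counting intervals. In the cells with 2 or more excitatory genes, whose median depth was 11905, 5915, and 4154 UMIs, thinned shares were 2.27%, 2.44%, and 0% for Sox1, 4.55%, 7.32%, and 9.09% for Sox2, and 4.55%, 4.88%, and 0% for Sox6. At P5 there were only 22 thinned cells of this kind, and the upper ends of their intervals were 15.4% for Sox1 and Sox6 and 29.2% for Sox2. The P5 shares of Sox1 (5.38%) and Sox2 in Lhx6 cells lie under these ends and cannot be told apart by them from the shares in cells with excitatory genes. At E16.5 and P1 the shares of Sox1, Sox2, and Sox6 in both groups were above the intervals of those cells. Before thinning, 14, 17, and 3 of the cells with excitatory genes, in stage order, were themselves Nos1 cells. They are thus no separate group, and background RNA was not measured.

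Among kept cells without thinning, Sox1 was found in 64.2%, 50.2%, and 29.3% of Nos1 cells and 33.0%, 30.1%, and 12.01% of Lhx6 cells, and Sox2 in 62.7%, 70.3%, and 65.3% of Nos1 cells and 64.9%, 53.1%, and 39.5% of Lhx6 cells. Thinned shares of Sox6 were 52.3%, 66.6%, and 53.1% in Nos1 cells and 46.4%, 44.5%, and 37.0% in Lhx6 cells. Sox6 was thus found in more Nos1 than Lhx6 cells at P1 and P5, while at E16.5 the interval of the Nos1 share (39.5 to 64.9) covered the Lhx6 share.

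Sox11 was found in most thinned cells, in 83.1% of Nos1 and 96.6% of Lhx6 cells at E16.5, and in 62.6% and 50.4% at P5. Sox4 was found in 84.6%, 84.0%, and 65.7% of Nos1 cells and in 84.4%, 66.8%, and 35.1% of Lhx6 cells. At P5 the gap between the groups was wider for Sox4 than for Sox11. Sox12 was found in 24.6%, 17.1%, and 11.4% of Nos1 cells and 21.3%, 18.7%, and 14.6% of Lhx6 cells. Sox5 was found in 21.5%, 3.09%, and 0.725% of Nos1 cells and 2.13%, 2.66%, and 1.32% of Lhx6 cells.

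Taking the 7 genes per thinned cell, Nos1 cells held a mean of 3.26, 3.57, and 2.61 of them and Lhx6 cells 3.07, 2.79, and 1.65. At least 5 were found in 18.5%, 21.3%, and 5.80% of Nos1 cells and in 9.19%, 6.92%, and 0.956% of Lhx6 cells. None was found in 16.02% of Lhx6 cells at P5, beside 4.35% of Nos1 cells.

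The members were next followed in smaller groups of cells set by UMIs of other genes. Within Nos1 cells, those with 5 or more Nos1 UMIs had more Sox1 and Sox2 than those with a single one. At P1 the level of Sox1 was 296 beside 112 CPM (2.65-fold, 2.04 to 3.47) and that of Sox2 610 beside 246 CPM (2.48-fold, 2.08 to 2.97). At P5 Sox1 was at 122 beside 41.5 CPM (2.94-fold, 1.68 to 5.63) and Sox2 at 408 beside 207 CPM (1.97-fold, 1.52 to 2.58). Sox5 went the other way, at 4.77 beside 62.2 CPM at P1. Of the 57 Sox5 UMIs in P1 Nos1 cells, 40 were in the 17 cells with 2 or more excitatory genes. Those 17 cells held only 30 of the 3883 Nos1 UMIs, and the groups by Nos1 UMIs were not compared without them. For Sox11 at P1, at 1635 beside 1708 CPM, the interval of the ratio (0.887 to 1.03) covered 1.

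Lhx6 cells with a UMI of Pou3f2, the POU factor of LRP neurons, also had more SOXB1 mRNA than those without. There were 104, 213, and 76 such cells at E16.5, P1, and P5. Sox1 was at 293, 185, and 87.7 CPM in them and at 103, 82.5, and 28.1 CPM in the other Lhx6 cells, which gives ratios of 2.84 (2.43 to 3.30), 2.24 (1.87 to 2.68), and 3.12 (2.00 to 4.68). Sox2 was at 426, 370, and 334 beside 263, 184, and 114 CPM, with ratios of 1.62 (1.43 to 1.83), 2.01 (1.77 to 2.28), and 2.93 (2.36 to 3.60). Both genes were higher in Pou3f2 cells of every library. Sox4 (1.59, 2.02, and 1.68), Sox6 (1.80, 1.40, and 1.43), and Sox11 (1.64, 1.51, and 1.34) were also above 1, and Sox12 was not (0.925, 0.888, and 0.853). Within Nos1 cells at P1, Sox2 was at 594 CPM with and 285 CPM without Pou3f2 (2.08-fold, 1.80 to 2.42), and at P5 at 426 and 324 CPM (1.31-fold, 1.13 to 1.53).

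Dach1, a transcriptional repressor, and Lypd1, a membrane-bound modulator of nicotinic receptors, divide Nos1 cells further. At P1, 98 Nos1 cells held Dach1 and no Lypd1, and 55 held Lypd1 and no Dach1. Sox1 was at 451 CPM in the former and 133 CPM in the latter, a ratio of 3.39 (2.42 to 4.83). Sox2 was at 510 and 687 CPM, a ratio of 0.741 (0.612 to 0.898), so the 2 SOXB1 genes went in opposite directions. Sox6 was at 758 and 595 CPM (1.27-fold, 1.06 to 1.53). At E16.5 and P5 one of these groups had under 30 cells, and they were not compared.

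**Figure D4:**
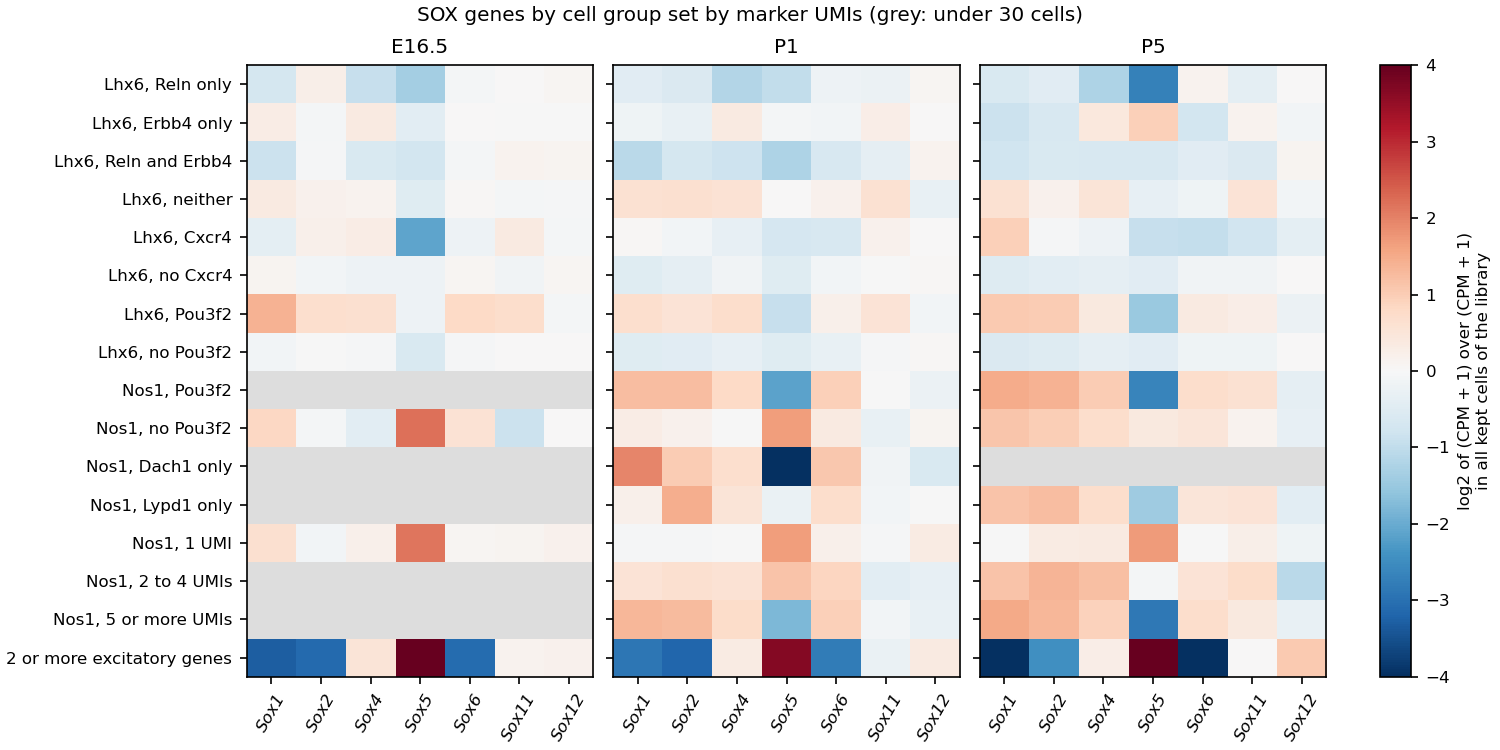
Level of each SOX gene in groups of cells set by marker UMIs, as log2 of CPM + 1 over CPM + 1 in all kept cells of the same library (red higher, blue lower, colours end at −4 and 4, grey for groups under 30 cells). Cells with 2 or more excitatory genes are drawn in every library, although there are only 24 at P5. At P1 and P5, Sox1 and Sox2 are red in most Nos1 and Pou3f2 groups and dark blue in cells with 2 or more excitatory genes, where Sox5 is dark red.

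Within Lhx6 cells, Reln without Erbb4 and Erbb4 without Reln (a secreted matrix protein and a neuregulin receptor) set apart groups that differed in Sox4. Sox4 was at 2507, 1030, and 460 CPM in Erbb4-only cells and at 1031, 358, and 143 CPM in Reln-only cells. The ratio was 2.43 (2.34 to 2.53), 2.88 (2.65 to 3.13), and 3.21 (2.91 to 3.55), so Erbb4-only cells were higher in every library. Sox11 was level at E16.5, with a ratio of 0.978, and higher in Erbb4-only cells at P1 (1.39) and P5 (1.46). Sox6 was level at E16.5 and P1 (1.08 and 1.06) and lower in Erbb4-only cells at P5, at 166 beside 304 CPM (0.547, 0.486 to 0.615). Sox5 at P5 was at 22.5 CPM in Erbb4-only cells, from 49 UMIs, and at 0.879 CPM, from 4 UMIs, in Reln-only cells. The study lists Sox4 among genes of non-Martinotti cells from these same libraries, which is not independent of the direction seen here.

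Cxcr4, the chemokine receptor of migrating interneurons, was found in 1136, 405, and 35 Lhx6 cells, in stage order. At E16.5 the cells with Cxcr4 had 2403 CPM of Sox4 and 4584 CPM of Sox11, beside 1686 and 3223 CPM in those without, ratios of 1.43 (1.40 to 1.45) and 1.42 (1.40 to 1.44). At P1 the ratios were 0.877 and 1.15, and at P5 they were 1.11 (0.828 to 1.45) and 0.642 (0.469 to 0.859), so neither gene kept its direction. Sox6 was lower with Cxcr4 at all 3 stages, at 292 beside 355, 232 beside 333, and 143 beside 250.3 CPM.

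Co-detection was read in the thinned cells, as the number of cells with both genes of a pair beside the number expected if they were found independently within a group and library. Of the 21 pairs of SOX genes, 17, 19, and 15 in Nos1 cells and 21, 21, and 18 in Lhx6 cells had at least 5 cells expected. The median ratio of found to expected was 1.05, 1.02, and 1.05 in Nos1 cells and 1.01, 1.06, and 1.12 in Lhx6 cells. Most pairs were thus close to what independence gives.

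Among SOXB1 and SOXD genes, Sox1 with Sox2 was found in 12 Nos1 cells at E16.5, where 5.82 were expected (2.06-fold, 1.11 to 3.36), and Sox1 with Sox6 in 16, where 9.42 were expected (1.70-fold, 1.02 to 2.55). Without the cells holding 2 or more excitatory genes these ratios were 1.70 (0.924 to 2.71) and 1.33 (0.812 to 1.95), whose intervals reach below 1. In Lhx6 cells at E16.5 the same pairs were found in 247 cells beside 209 expected (1.18-fold, 1.04 to 1.33) and in 310 beside 255 expected (1.22-fold, 1.09 to 1.35). The excess in Lhx6 cells was small and rests on many cells. At P5, Sox4 with Sox11 was found in 348 Lhx6 cells beside 296 expected (1.18-fold, 1.07 to 1.29).

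The SOXD genes were seldom found in the same Nos1 cell. Sox5 with Sox6 was found in 3 Nos1 cells at E16.5 and 1 at P1, where 7.32 were expected in each, and the P1 ratio was 0.137 (0.00346 to 0.756). Without the cells holding 2 or more excitatory genes, the pair was found in 3 cells beside 3.33 expected and in 0 beside 4.85 expected, so the E16.5 deficit was not seen there. In Lhx6 cells the pair was found in 32 cells beside 30.6 expected at E16.5 and in 15 beside 15.6 at P1, close to independence.

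With other genes, Sox1 stood out beside Dach1. In E16.5 Lhx6 cells Sox1 was found in 56.9% of the 51 cells with Dach1 and 17.1% of those without (3.20 times the expected number, 2.15 to 4.59). In P1 Nos1 cells it was found in 34 of the 53 Dach1 cells, where 19.7 were expected (1.73-fold, 1.21 to 2.37). Sox2 was found in as many of these cells, 34, but 31.9 were expected (1.07-fold, 0.749 to 1.46). Beside Pou3f2 in Lhx6 cells, Sox1 was found at 2.51 (1.61 to 3.72) and 1.61 (1.14 to 2.21) times and Sox2 at 1.56 (1.07 to 2.20) and 1.51 (1.17 to 1.90) times the expected number at E16.5 and P1.

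**Figure D5:**
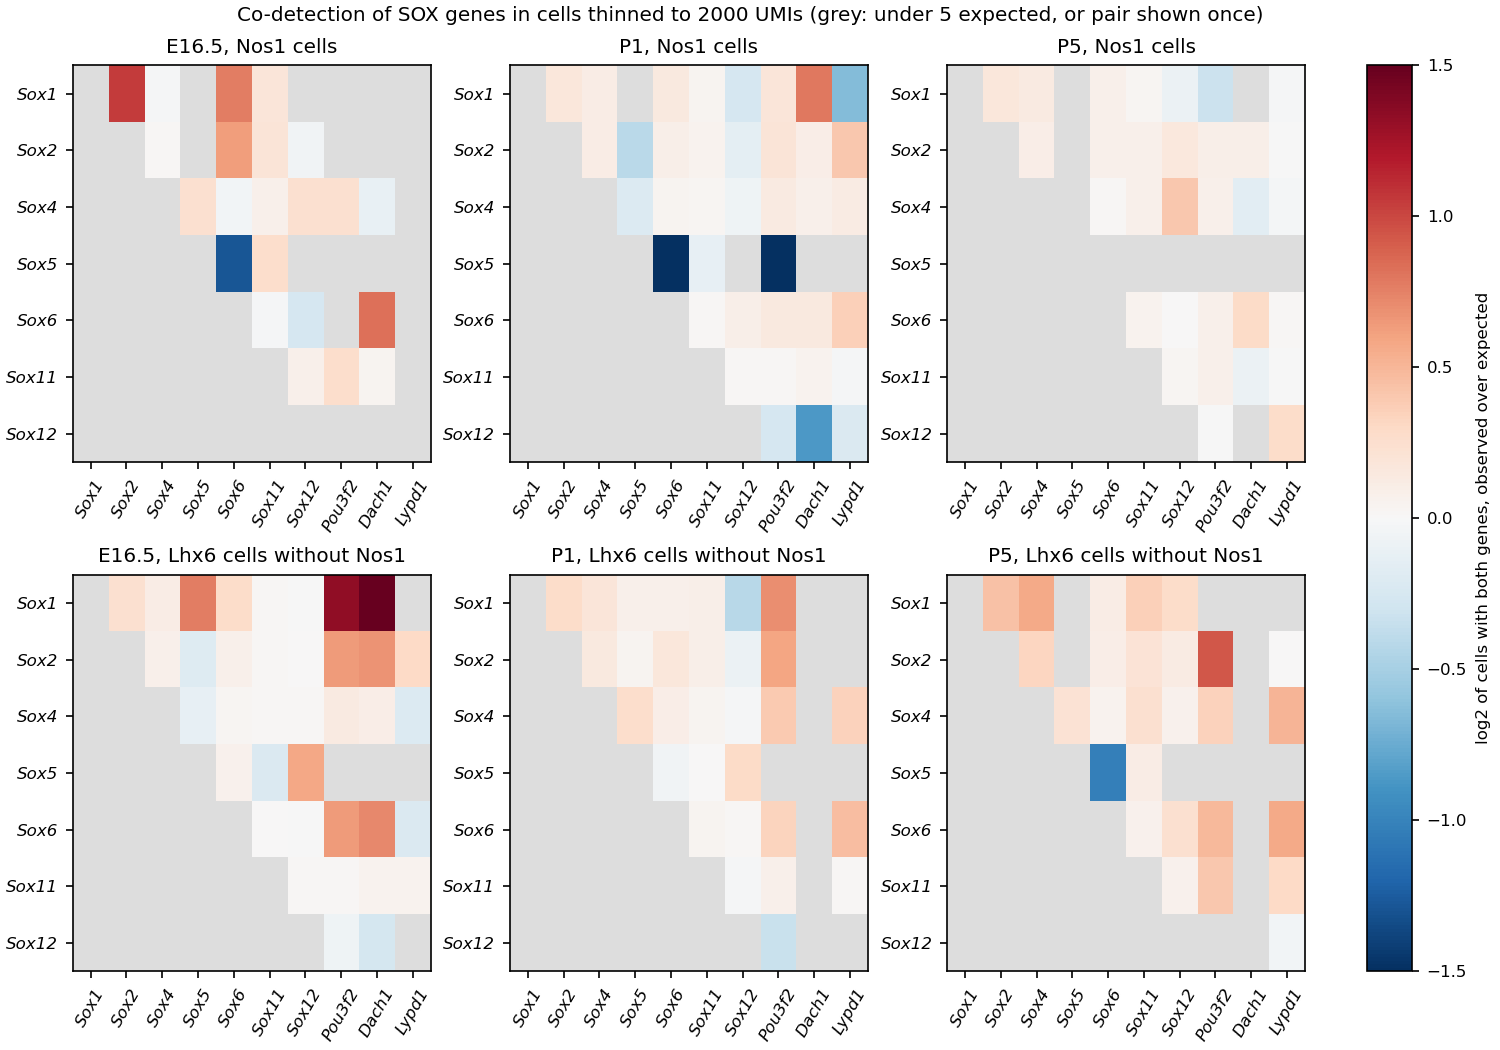
Cells with a UMI of both genes over the number expected from independence, on a log2 scale (red more often, blue less often, colours end at −1.5 and 1.5), for pairs of SOX genes and for each SOX gene with Pou3f2, Dach1, and Lypd1, in cells thinned to 2000 UMIs. Grey marks under 5 expected cells or a pair shown elsewhere; the red squares of Sox1 with Dach1 and Pou3f2 in E16.5 Lhx6 cells and the blue squares of Sox5 with Sox6 in Nos1 cells stand out.

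Of 20 genes listed as SOX partners or lineage factors, 4, 7, and 7 were at least 2-fold higher in Nos1 than in Lhx6 cells, in stage order, beside 9.56%, 5.79%, and 6.07% of all genes. Of the same 20, 7, 2, and 3 were lower, beside 15.4%, 6.26%, and 10.3%. Without cells holding 2 or more excitatory genes, the E16.5 counts were 5 higher and 4 lower, beside 9.7% and 18.8%. The 20 include Lhx6, a UMI of which is required of the reference cells, so its ratio was set in part by that choice. The study names Pou3f2, Zeb1, Dach1, and Tshz2 among the genes of LRP neurons from these same cells. Their direction, and the counts that hold them, are thus not independent evidence. Pou3f2 was at 146, 335, and 282 CPM in Nos1 and 9.33, 51.2, and 11.6 CPM in Lhx6 cells (15.7-, 6.54-, and 24.4-fold). Of its 87 UMIs in Nos1 cells at E16.5, 59 were in cells with 2 or more excitatory genes. Zeb1, a zinc finger repressor (4.91-, 8.28-, and 7.61-fold), and Dach1 (12.4-, 38.0-, and 23.2-fold) were higher in all 3 libraries. Sp9, a factor of interneurons from the ganglionic eminences, was higher at P1 and P5 (4.79- and 8.85-fold). Satb1, which promotes the maturation of SST+ interneurons, was lower at 0.334, 0.495, and 0.315 times the Lhx6 level.

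Of 12 genes known downstream of SOXC or SOXB1 proteins, 9, 8, and 7 passed the count filter, and 2, 0, and 1 of them were higher in Nos1 cells, beside the same 9.56%, 5.79%, and 6.07% of all genes. Another 3, 1, and 1 were lower, beside 15.4%, 6.26%, and 10.3%. Stmn1, a microtubule regulator, had ratios of 0.853, 1.05, and 1.38, and Dcx, the microtubule protein of migrating neurons, 0.677, 0.737, and 0.864. Neither reached 2-fold at any stage. The other 12 SOX genes, which include the glial factors Sox9 and Sox10, summed to 18.5, 6.09, and 6.11 CPM in Nos1 cells and 4.99, 6.37, and 7.88 CPM in Lhx6 cells. Sox10, Sox14, Sox17, and Sox21 had no UMI in either group of any library, which allows at most 5.05, 1.52, and 1.53 CPM in Nos1 cells and 0.141, 0.375, and 0.324 CPM in Lhx6 cells.

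Finally, each SOX gene was set beside 7264 genes over 19 profiles of cell groups that exclude each other within a library, by the correlation of log2 CPM + 1. Profiles of a library share its depth and stage, so these values only describe likeness. The nearest genes were Ptprd, Vstm2b, and Tiparp for Sox1 (r = 0.912, 0.911, and 0.910), Pxylp1, Tshz2, and Elmo1 for Sox2 (0.882, 0.863, and 0.855), and Brinp2, Vstm2b, and Tox for Sox6 (0.905, 0.902, and 0.892). Vstm2b was thus near both Sox1 and Sox6, which were also the most alike of the members (r = 0.916). The nearest to Sox5 were Nfib, Gpr85, and Kitl (0.923, 0.867, and 0.815).

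For the SOXC genes, the nearest were H2afv, Gm26735, and Khdrbs2 for Sox4 (0.951, 0.947, and 0.941), Ezh2, Srsf7, and Hnrnph3 for Sox11 (0.986, 0.984, and 0.983), and Capzb, Eif2b1, and Eef1e1 for Sox12 (0.929, 0.927, and 0.927). Gm26735 overlaps Sox4 on the other strand, and the sources used here do not state how the counting treated strand, so reads of the pair may not be separable. Sox4 and Sox11 were alike (r = 0.880), as were Sox11 and Sox12 (r = 0.805), whereas Sox6 and Sox12 were the least alike pair (r = 0.116).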

How the data were processed

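GFP+ cells of the NCx at E16.5, P1, and P5 made 1 10x library per stage. The authors aligned reads to GRCm38 with Cell Ranger (per the file headers 3.1.0 for E16.5 and P5 and 3.0.2 for P1) and deposited UMI counts as whole numbers, not normalized. Gene spans come from GENCODE for GRCm38 and promoter windows from RefSeq (GRCm38.p6).

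Kept cells had more than 700 genes and under 10% mitochondrial UMIs (9433 of 12324 cells). Counts were summed per group and scaled to CPM, with exact Poisson intervals. Shares have exact Clopper-Pearson intervals, and ratios of CPM an exact conditional binomial interval, all at 95%. For co-detection ratios, the Clopper-Pearson interval of the share of cells with both genes was divided by the expected share. The expected share was taken as fixed, so its own error is not covered. Calls used the plain ratio of CPM, and log2 ratios a pseudocount of 1 CPM. Thinning to 2000 UMIs used seed 1. Intervals cover counting error only, since the libraries have no replicates. No doublet caller was run, and the top 5% of cells by UMIs were left out as an alternative. The software was Python (3.11.15), numpy (2.4.6), pandas (2.3.3), scipy (1.17.1), and matplotlib (3.10.9), and the steps were tested on simulated data. The members and lists were chosen with earlier results of these data known. Named genes are the 7 members, the listed genes, and the 3 genes most like each member over cell-group profiles with a mean of at least 20 CPM and at least 30 cells. The groups by excitatory genes were added after seeing the data, and 1 marker first listed with them is not reported here and was left out of every sum and group.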

Additional observations from a re-analysis of the deposited data

Results flagged for a closer look

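Relative to E16.5, Sox2 at P1 and P5 and Sox6 at P1 were below 1 in Lhx6 cells and above 1 in Nos1 cells. Sox2 at P1 was at 0.761 times in Lhx6 cells and 1.73 times in Nos1 cells, and at P5 at 0.452 and 1.42 times. Sox6 at P1 was at 0.917 times in Lhx6 cells and 1.29 times in Nos1 cells. The Nos1 values depend on the E16.5 cells with 2 or more excitatory genes, since without them they were 1.33, 1.00, and 0.969, and with a Lhx6 UMI required of Nos1 cells 1.29, 0.940, and 0.946. The Lhx6 values at P1 depend on the filter on cells, since with over 1000 genes and under 5% mitochondrial UMIs they were 1.17 for Sox2 and 1.05 for Sox6. From P1 to P5 both genes were lower in both groups.

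The ratio of Nos1 over Lhx6 cells for Sox11 was below 1 at E16.5 (0.873) and P1 (0.890) and above 1 at P5 (1.45). With 1 library per stage, these differences between groups or stages were not tested.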

How the results depend on the processing

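No paired analysis was possible between stages because each has 1 library, and the pairs of Nos1 and Lhx6 cells in the 3 libraries were not tested as replicates, since these differ in stage. In total, 23 alternatives were run. Of 360 recomputed counts of genes or pairs, 329 stayed within 1.5 times the reported value. The 1978 other recomputed values were ratios and shares of single genes, co-detection ratios of pairs and their medians, and shares of all genes. Of these, 1611 stayed within the counting interval, or within a fixed limit for the medians and the shares of all genes. Another 358 moved further, and 9 log2 ratios called 2-fold changed sign. The 9 concern Sox5. Its log2 ratio of Nos1 over Lhx6 cells at P1 (1.11 as reported) was −3.26 with over 1000 genes and under 5% mitochondrial UMIs, where 1 Sox5 UMI is left in Nos1 cells, −0.0049 with at least 2 and −1.27 with at least 5 Nos1 UMIs, −0.083 with a Lhx6 UMI required, −0.016 with groups read after thinning, and −0.26, −0.25, and −0.27 without cells with 2 or more excitatory genes, any of them, or 2 or more excitatory, glial, or cycling genes. Its P5 over P1 value in Nos1 cells (−1.79) was 1.40 under the first of these.

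The number of SOX genes higher in Nos1 cells at E16.5 (1 as reported) was 2 with the mean of CPM per cell, with at least 2 Nos1 UMIs, with a Lhx6 UMI, with groups read after thinning, with 2 Lhx6 UMIs or without Pou3f2 and Chodl in the reference, without the top 5% of cells by UMIs, and without any excitatory gene. It was 3 with at least 5 Nos1 UMIs and without 2 or more excitatory genes, with or without glial and cycling genes. With over 1000 genes and under 5% mitochondrial UMIs, 1 gene was higher and 1 lower at P1 (3 and 0), 0 were lower at P1 than at E16.5 (2) and 5 at P5 than at P1 (3) in Lhx6 cells, and 1 was higher at P1 than at E16.5 in Nos1 cells (0). With the mean of CPM per cell, 1 was higher at P1 (3), 1 was lower at P1 (2) and 3 at P5 (5) than at E16.5 in Lhx6 cells, and 2 were lower at P1 than at E16.5 in Nos1 cells (1). That last count was also 2 without mitochondrial and ribosomal genes and without the top 5% of cells, where 1 was lower in Lhx6 cells (2). With at least 5 Nos1 UMIs, 1 was lower in Nos1 cells at each stage (0), and 3 were lower at P5 than at E16.5 (5). With at least 2, 1 was lower at P5. Counts with at least 5 Nos1 UMIs that involve E16.5 rest on few cells, since 38 of the 67 Nos1 cells there held a single Nos1 UMI. Pairs found more often than expected in Lhx6 cells at P5 numbered 11 at 1000 UMIs and under the stringent filter (17), and 10 at E16.5 under that filter (16). The cause of these changes was not tested. The planned removal of excitatory cells required 0 Nos1 and Lhx6 UMIs, so it left both groups as they were. Depth limits Sox5 most, with 15 UMIs in P5 Nos1 cells.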
